A study of Homo sapiens and Mus musculus with 22 samples.

Results

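The collagen genes of 3 deposited expression tables were described by the class of collagen they encode. A gene was a member when its whole symbol was COL, a number, A and a number (Col and a in mouse). This rule found 44 members among 25435 genes in the table of NCI-H69 (H69) and its derivative H69M, 44 among 20113 genes in the table of H69EZ fractions, and 44 among 24047 genes in the mouse table. COL21A1 was a member in the human tables and Col6a4 in the mouse table, so 43 members were common to all tables by symbol. The members of each table comprise 11 fibrillar collagens, 8 chains that belong to basement membrane collagens (types IV, XV and XVIII) and 25 others.

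RNA was sequenced from small cell lung cancer lines whose labels give the MHC class I status (the complex by which T cells read peptides of a cell) as high or as low or negative. H69 and its derivative H69M were sequenced unsorted, and H69M also after sorting for PD-L1, an immune checkpoint ligand. H69EZ is another H69 derivative, which had seen an EZH2 inhibitor for 6 days before culture without it and had been selected for adherent growth; both of its sorted fractions share that history. RPP-A is a mouse line selected for adherent growth from RPP. The groups were the PD-L1 high fraction of H69M (MHC class I high, n = 3), its PD-L1 low/neg fraction (low or negative, n = 3), unsorted H69M (high, n = 3), H69 (low or negative, n = 3), the HLA-ABC high fraction of H69EZ (high, n = 2), its HLA-ABC low/neg fraction (low or negative, n = 2), RPP-A (high, n = 3) and RPP (low or negative, n = 3). Each derivative is 1 line, and the labels give no genotype for RPP. The labels do not tell whether replicates came from different cultures, and the spread behind each p-value may therefore be only technical.

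Collagens are secreted or membrane proteins whose chains wind into triple helices. Fibrillar collagens form the banded fibres of connective tissue, type IV collagen builds the sheet of basement membranes, and others coat fibrils, form beaded filaments or span the cell membrane. Fibroblasts are the main source of type I collagen in most tissues, whereas neuroendocrine cells of small cell lung cancer are not known as collagen producers. Chains are hydroxylated and folded in the endoplasmic reticulum, trimmed after secretion and cross-linked by lysyl oxidases.

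Totals ran from 10817795 to 52458228 counts per library. Levels are given as CPM, read counts relative to the library total after TMM scaling within a table, and are not compared between tables. The mouse libraries named EHK_RPP4 (RPP) and RPPM3 (RPP-A) stood apart from the other libraries of their groups. Counts of EHK_RPP4 differed from those of RPP1 and RPP2 by a chi-square per degree of freedom of 29.4 and 33.2, against 3.53 between RPP1 and RPP2. RPPM3 differed from RPPM1 and RPPM2 by 35.6 and 38.8, against 1.35 between RPPM1 and RPPM2. Mouse results are therefore given with and without EHK_RPP4 where they move.

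Collagen transcripts took a larger share of all counts in each MHC class I high group than in its counterpart. Collagens made up 1.59% ± 0.0424 of counts in the PD-L1 high fraction and 0.128% ± 0.0110 in the PD-L1 low fraction (SD, n = 3 each). In unsorted H69M the share was 0.466% ± 0.0246, against 0.116% ± 0.00768 in H69 (SD, n = 3 each). The H69EZ fractions held 2.12% ± 0.107 (HLA-ABC high) and 0.0578% ± 0.00122 (HLA-ABC low; SD, n = 2 each). RPP-A held 3.14% ± 0.547 and RPP 0.109% ± 0.0383 (SD, n = 3 each), with RPP-A libraries between 2.51% and 3.46% and RPP libraries between 0.0865% and 0.154%. The groups of each pair did not overlap. In bulk RNA, more cells that make a transcript and more RNA per cell cannot be told apart.

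**Figure D1:**
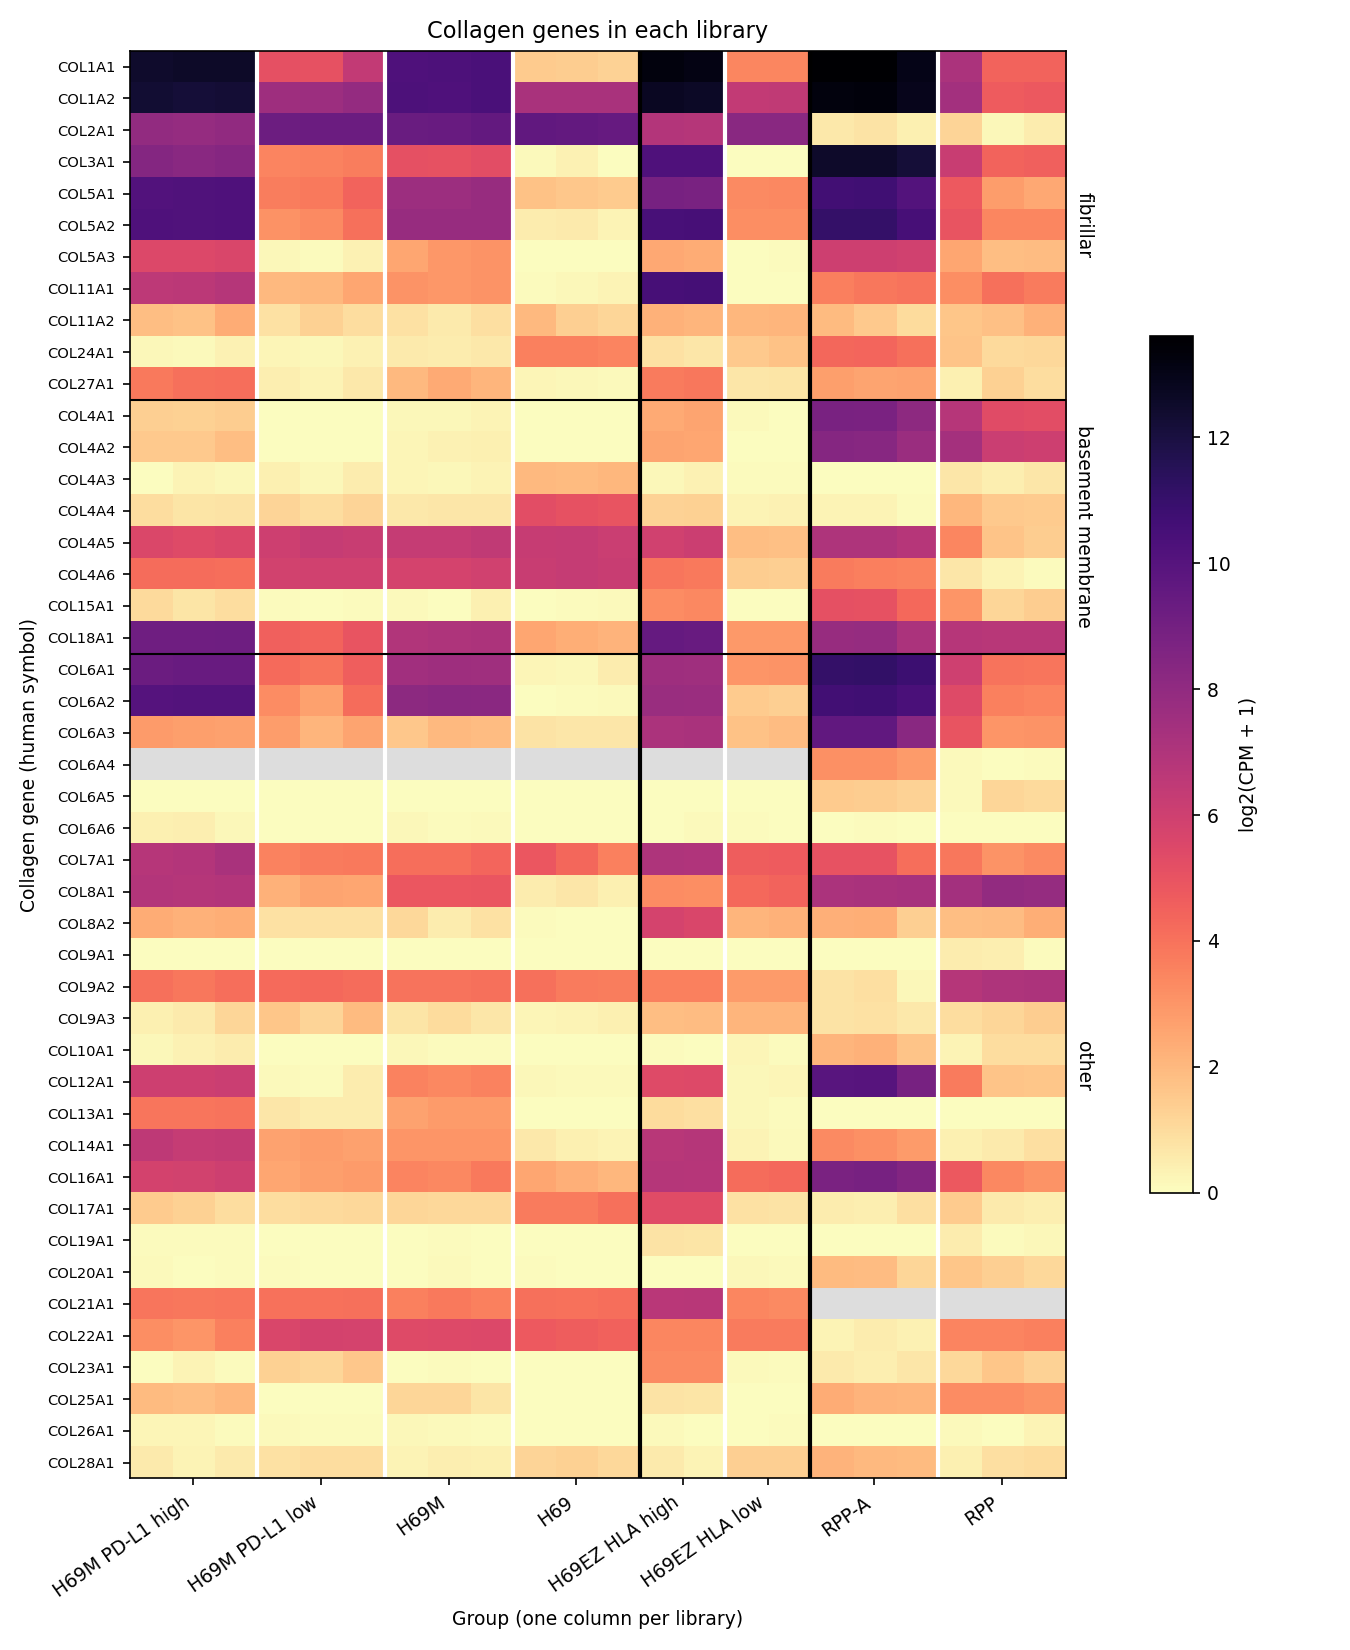
Level of each of the collagen genes, as log2(CPM + 1), in each library (columns, by group); rows are ordered by class, grey marks a symbol that was no member in that table, and scaling was within a table. COL1A1, COL1A2, COL5A1, COL5A2, COL6A1 and COL6A2 are dark in PD-L1 high, H69M, HLA-ABC high and RPP-A columns, while COL2A1 is the highest row in H69, PD-L1 low and HLA-ABC low.

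The 3 classes differed in size of change, given here as the log2 ratio of geometric means over libraries beside arithmetic means. Summed fibrillar collagen was 13801 ± 237 CPM in PD-L1 high cells and 912 ± 79.2 in PD-L1 low cells, a log2 ratio of 3.92, whereas the basement membrane sum was 625 ± 10.3 and 155 ± 9.21, a log2 ratio of 2.01 (SD, n = 3 each). Between H69M and H69 the fibrillar sum had a log2 ratio of 2.04 (3706 ± 215 against 902 ± 42.1 CPM) and the basement membrane sum 0.51 (267 ± 16.9 against 188 ± 9.77 CPM; SD, n = 3 each). The H69EZ fractions were the exception to this order: the basement membrane sum was 775 ± 28.9 CPM in HLA-ABC high cells and 10.8 ± 0.0900 in HLA-ABC low cells, a log2 ratio of 6.16, and the fibrillar sum 20449 ± 980 and 427 ± 5.75, a log2 ratio of 5.58 (SD, n = 2 each). RPP-A and RPP differed most in fibrillar collagen, with 28998 ± 5097 and 223 ± 203 CPM, a log2 ratio of 7.38, against 1.91 for basement membrane collagens (1020 ± 233 and 278 ± 109 CPM; SD, n = 3 each). The RPP fibrillar sum ran from 105 to 458 CPM, and its highest library was EHK_RPP4; without it the log2 ratio was 8.09 for fibrillar and 2.21 for basement membrane collagens. Sums of the other collagens had log2 ratios of 3.85 in the PD-L1 sort, 2.77 between H69M and H69, 3.39 in the HLA sort and 3.60 between RPP-A and RPP. COL18A1 alone supplied 559 of the 625 CPM of the basement membrane sum in PD-L1 high cells and 24.3 of the 155 CPM in PD-L1 low cells. In H69M it supplied 129 of 267 CPM. COL4A5 and COL4A6, also in this sum, were lower in PD-L1 high than in PD-L1 low cells. The rise of the basement membrane sum in this sort is therefore not one of the class as a whole. In HLA-ABC high cells COL18A1 supplied 680 of the 775 CPM, and the HLA-ABC low libraries had 6.34 and 6.40 CPM of it. The basement membrane ratio of the H69EZ fractions thus rests largely on this 1 gene. The fibrillar sums of the human low groups were mostly COL2A1, with 615 of 912 CPM in PD-L1 low cells, 739 of 902 in H69 and 309 of 427 in HLA-ABC low cells. COL2A1 was lower in the high fraction of both sorts, so the human fibrillar ratios also depend on 1 gene. No test was made of a sum.

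**Figure D2:**
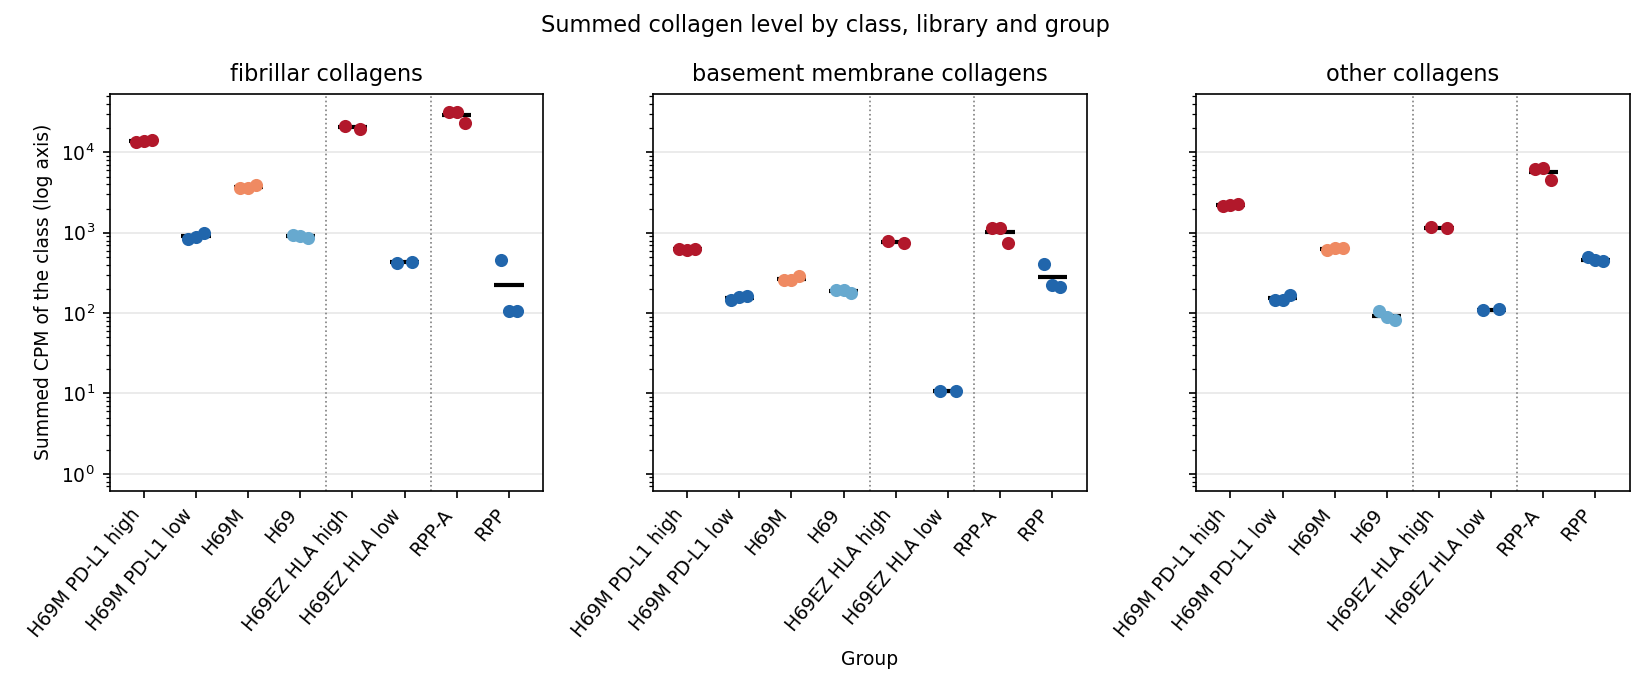
Summed CPM (log axis) of fibrillar, basement membrane and other collagens in each library; points are libraries, bars group means, and dotted lines separate tables. MHC class I high groups lie above their counterparts in all 3 classes, with fibrillar means of 13801, 3706, 20449 and 28998 CPM in PD-L1 high, H69M, HLA-ABC high and RPP-A libraries. COL18A1 alone supplied 559 of the 625 CPM of the basement membrane mean in PD-L1 high libraries.

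Single members were tested with the edgeR quasi-likelihood test and Benjamini-Hochberg adjustment over all genes of a table, at an adjusted p under 0.05. Of 37 members tested in the PD-L1 sort, 23 were higher in PD-L1 high cells, 9 lower and 5 passed in neither direction, where 39.0% of all genes tested were higher and 39.4% lower. Between H69M and H69, 23 of 37 were higher and 8 lower, beside 35.9% and 36.6% of all genes. In the HLA sort 30 of 37 were higher in HLA-ABC high cells and 5 lower, beside 41.1% and 40.2%. RPP-A had 24 of 36 tested members higher and 7 lower than RPP, beside 37.6% and 40.6%. The median log2 fold change of tested members was 3.92, 3.12, 5.62 and 2.56 in these comparisons, and that of all genes lay between -0.04 and 0.00. PD-L1 low cells against H69 had 20 of 37 higher and 9 lower, beside 39.0% and 36.9%, with a median of 0.49. Members that passed the filter on low counts only through 1 group had to differ, and 7 or 8 members of each table were not tested.

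By class, 9 of 11 fibrillar members were higher and 1 lower in PD-L1 high cells, 8 of 11 and 2 in H69M, 8 of 11 and 2 in HLA-ABC high cells, and 8 of 10 and 0 in RPP-A. Of 8 basement membrane members, 4 were higher and 3 lower in PD-L1 high cells and 3 higher and 3 lower in H69M, shares close to those of all genes (39.0% and 39.4%, and 35.9% and 36.6%). In HLA-ABC high cells 7 of 7 tested were higher, beside 41.1% of all genes. Of these, COL4A1, COL4A2 and COL15A1 passed the filter on low counts only through HLA-ABC high cells and had to differ. So did COL3A1, COL5A3 and COL11A1 of the fibrillar members, and COL12A1, COL13A1, COL14A1, COL19A1, COL23A1 and COL25A1 of the other collagens. The same holds for COL4A1 and COL4A2 in the PD-L1 sort and for Col4a6, Col6a4, Col10a1, Col14a1, Col27a1 and Col28a1 in RPP-A. In the other direction, COL28A1 passed the filter only through HLA-ABC low cells, and Col4a4, Col9a2, Col9a3, Col22a1 and Col23a1 only through RPP. RPP-A had 6 of 7 higher and 1 lower. Among the other collagens the counts were 10 higher and 5 lower of 18, 12 and 3 of 18, 15 and 3 of 19, and 10 and 6 of 19 in the same order.

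**Figure D3:**
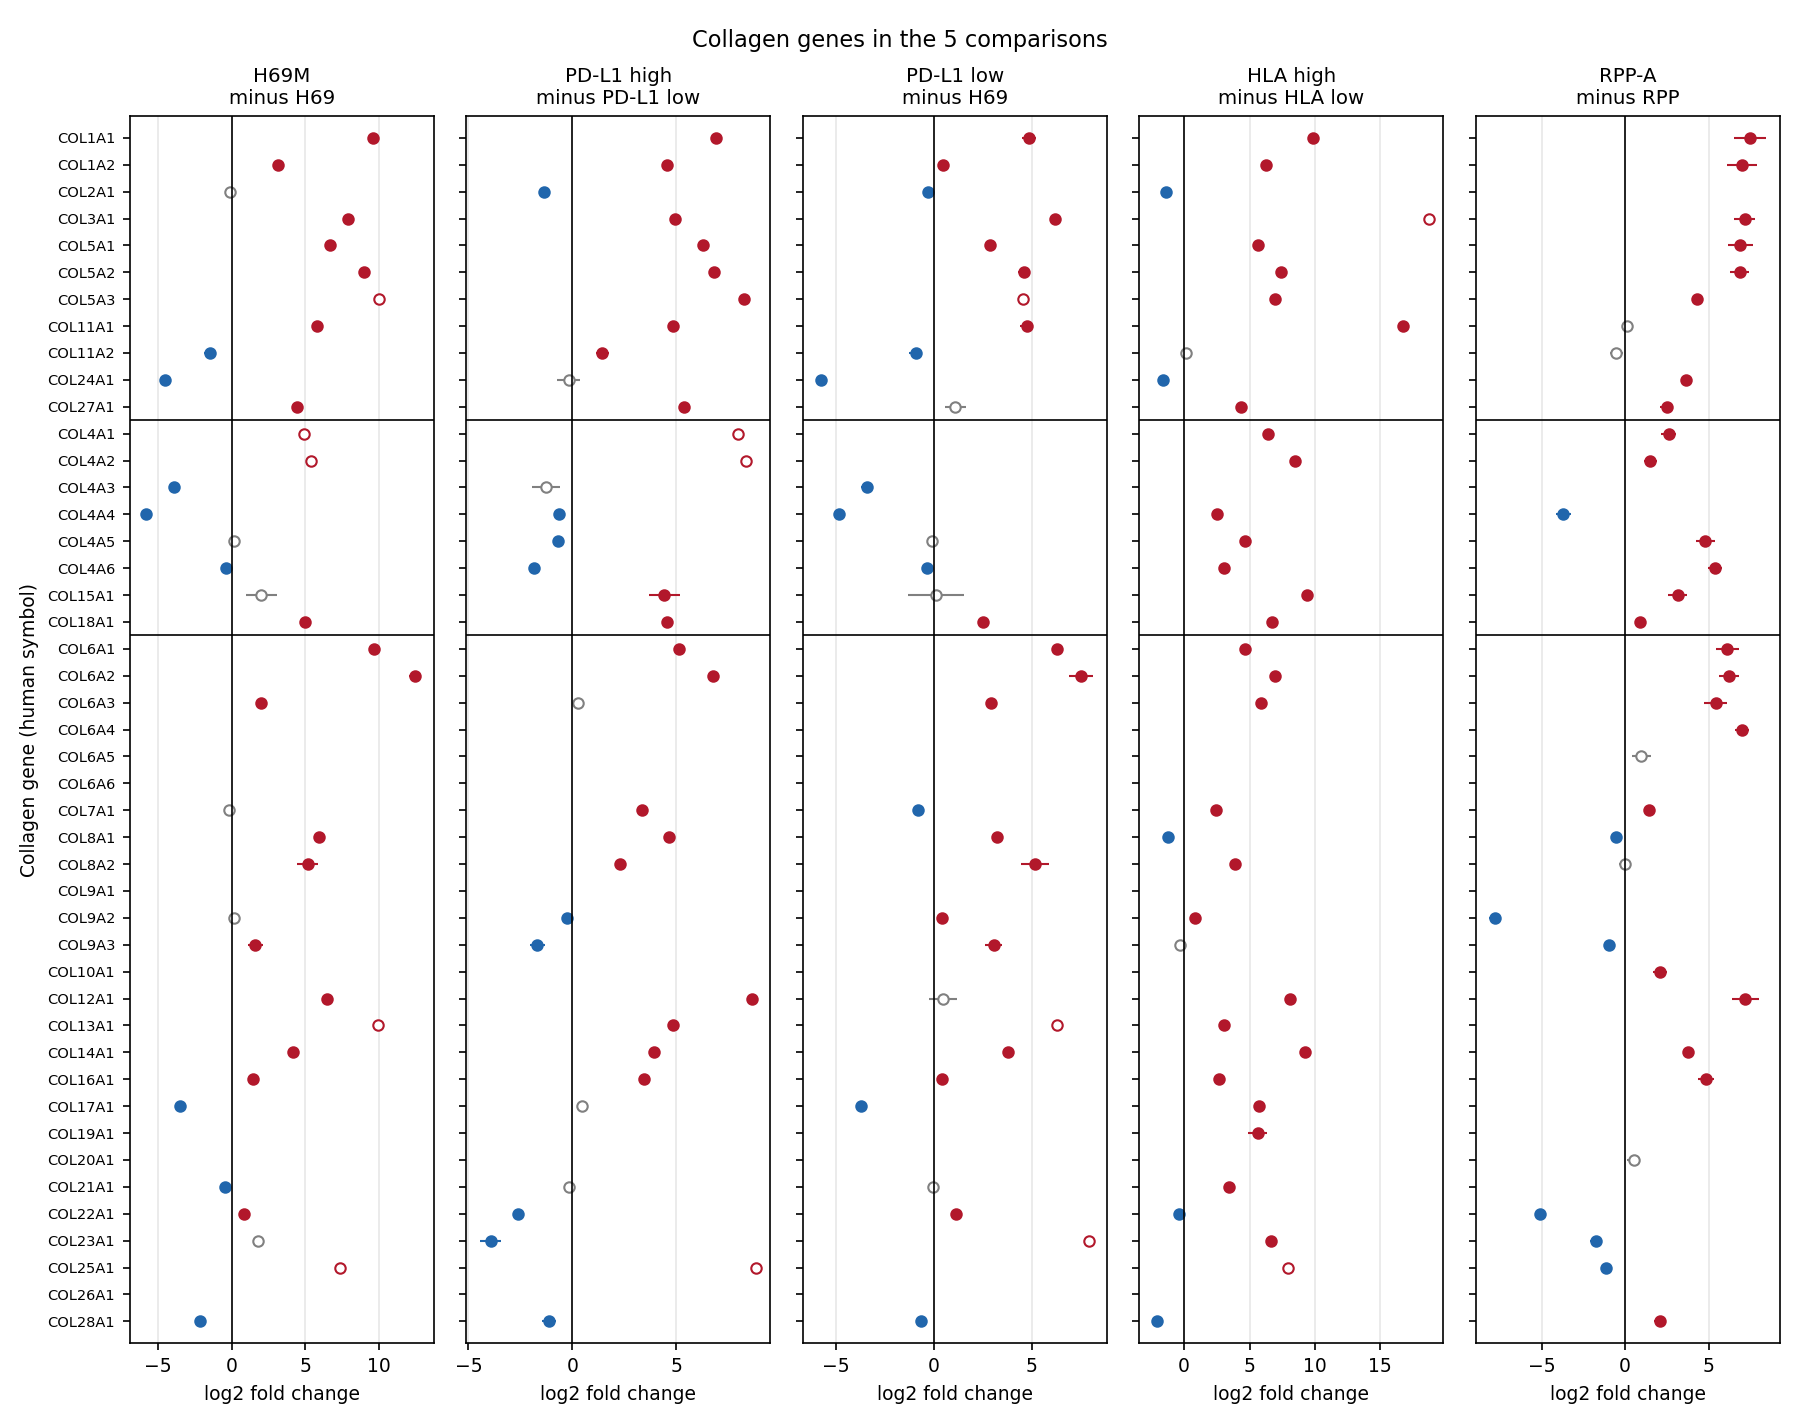
Log2 fold change of each tested member in 5 comparisons, with bars of ±1 SE; red points passed as higher, blue as lower and grey open points did not pass, and open red points have 1 group without a count, so that their position depends on the prior count. Basement membrane members lie on both sides of 0 in the PD-L1 sort and in H69M, and to the right of 0 in the HLA sort.

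Markers of other cell types were read beside these results. The sum of 9 fibroblast markers was 606 to 625 CPM in PD-L1 high and 404 to 411 in PD-L1 low cells, 596 to 648 in H69M and 529 to 563 in H69, and 546 to 592 in HLA-ABC high and 307 to 308 in HLA-ABC low cells. TCF21 had no count in these human groups except PD-L1 high cells, and PDGFRB none in H69. Of 8 tested, 5 were higher in PD-L1 high cells, 7 in H69M and 7 in HLA-ABC high cells, and 1 was lower in each. The shares of all genes that were higher were 39.0%, 35.9% and 41.1%. Periostin (POSTN) made up most of this sum in the human libraries, and LUM is also on the list of collagen-processing genes. The neuroendocrine sum was 2714 to 2798 CPM in H69M and 2776 to 2953 in H69, and 150 to 191 in RPP-A and 2282 to 2828 in RPP. Endothelial sums (4 markers, 3 in the H69EZ table) were low but moved with collagen in the sorts, at 5.68 to 6.05 CPM in PD-L1 high and 0.931 to 1.37 in PD-L1 low cells and 1.67 to 1.94 in HLA-ABC high and 0.116 to 0.178 in HLA-ABC low cells. They were 1.57 to 1.89 CPM in H69M and 2.82 to 3.39 in H69, and KDR had no count in H69 and HLA-ABC low cells. Of 3 endothelial markers tested in each sort, 2 were higher and 1 lower (log2 fold change -2.11) in PD-L1 high cells. All 3 were higher in HLA-ABC high cells. Sums of 4 leukocyte markers were 7.78 to 9.08 CPM in PD-L1 high and 1.72 to 2.48 in PD-L1 low cells, 5.76 to 6.27 in HLA-ABC high and 4.18 to 4.94 in HLA-ABC low cells, and 3.60 to 4.32 in H69M and 3.32 to 4.06 in H69, with CD3E at 0 in all. RPP-A had 2.12 to 3.33 CPM of endothelial markers, against 39.5 to 46.8 in RPP, with Cdh5 at 0 in RPP-A. Its leukocyte sum was 32.5 to 36.4 CPM, against 1.96 to 3.09 in RPP, with Ptprc and Cd3e at 0 in RPP-A. The part of these markers in the collagen results was not tested.

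COL1A1 and COL1A2 encode the chains of type I collagen, the main protein of tendon, bone and scar. COL1A1 had 5589, 5998 and 6045 CPM in PD-L1 high libraries, against 33.7, 32.6 and 82.2 CPM in PD-L1 low libraries (log2 fold change 6.94, SE 0.24, edgeR adjusted p = 5.71e-16). Every PD-L1 high library was far above every PD-L1 low library, in which the replicate labelled 3 was the highest. H69M libraries had 1217, 1236 and 1358 CPM, against 1.77, 1.62 and 1.37 CPM in H69 (log2 fold change 9.60, SE 0.32, edgeR adjusted p = 5.28e-16). COL1A1 was thus nearly silent in H69 and among the most abundant collagens in H69M. PD-L1 low cells carry the same MHC class I label as H69 but were also above it (log2 fold change 4.88, SE 0.35, edgeR adjusted p = 1.15e-10).

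COL1A2 differed less, and its level in MHC class I low groups was not near 0. PD-L1 high libraries had 5008, 4709 and 4874 CPM and PD-L1 low libraries 189, 193 and 234 CPM (log2 fold change 4.57, SE 0.08, edgeR adjusted p = 1.91e-20). In H69M it had 1257, 1192 and 1357 CPM, against 147, 147 and 145 CPM in H69 (log2 fold change 3.12, SE 0.07, edgeR adjusted p = 3.55e-18). Both pairs were fully separated. Per kilobase of coding sequence, a scale on which genes can be compared, COL1A1 and COL1A2 were close in PD-L1 high cells (1338 ± 57.0 and 1187 ± 36.6 CPM per kb) and in H69M (289 ± 17.4 and 309.6 ± 20.2; SD, n = 3). On the same scale H69 had 0.362 ± 0.0459 for COL1A1 and 35.7 ± 0.374 for COL1A2, and PD-L1 low cells 11.3 ± 6.45 and 50.1 ± 5.99 (SD, n = 3). COL1A1 was thus the minor transcript of the pair in both MHC class I low groups. No test was made of this ratio, and exome capture may enrich 1 gene more than another.

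In H69EZ, COL1A1 had 9779.9 and 8815 CPM in HLA-ABC high libraries and 9.70 and 9.93 CPM in HLA-ABC low libraries (log2 fold change 9.89, SE 0.09). COL1A2 had 6703 and 6244 CPM in HLA-ABC high libraries and 83.8 and 86.5 CPM in HLA-ABC low libraries (log2 fold change 6.25, SE 0.07). The uneven pair was seen again in HLA-ABC low cells, with 2.23 ± 0.0365 CPM per coding kb for COL1A1 and 20.8 ± 0.455 for COL1A2, against 2117 ± 155 and 1580.0 ± 79.3 in HLA-ABC high cells (SD, n = 2). With 2 libraries per fraction the spread in this table was estimated from all genes together, and its very small p-values are not printed: members called higher or lower there passed the threshold.

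In the mouse lines, Col1a1 had 12025, 12429 and 8177 CPM in RPP-A libraries and 141, 20.9 and 20.7 CPM in RPP libraries (log2 fold change 7.48, SE 0.95, edgeR adjusted p = 0.000169). Col1a2 had 9886, 9985 and 7582 CPM in RPP-A and 167, 24.7 and 26.7 CPM in RPP (log2 fold change 6.98, SE 0.90, edgeR adjusted p = 0.000187). The highest RPP library for both genes was EHK_RPP4, and the groups did not overlap. Without EHK_RPP4 the log2 fold changes were 9.07 and 8.52. Most fibroblast markers moved with type I collagen in these lines. The summed level of the 9 listed markers was 6788 to 7680 CPM in RPP-A and 67.5 to 169 CPM in RPP, with Lum and Tcf21 at 0 in RPP. Of 8 markers tested, 7 were higher in RPP-A and 1 was lower (log2 fold change -5.06), beside 37.6% and 40.6% of all genes. Their part in the result was not tested.

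**Figure D4:**
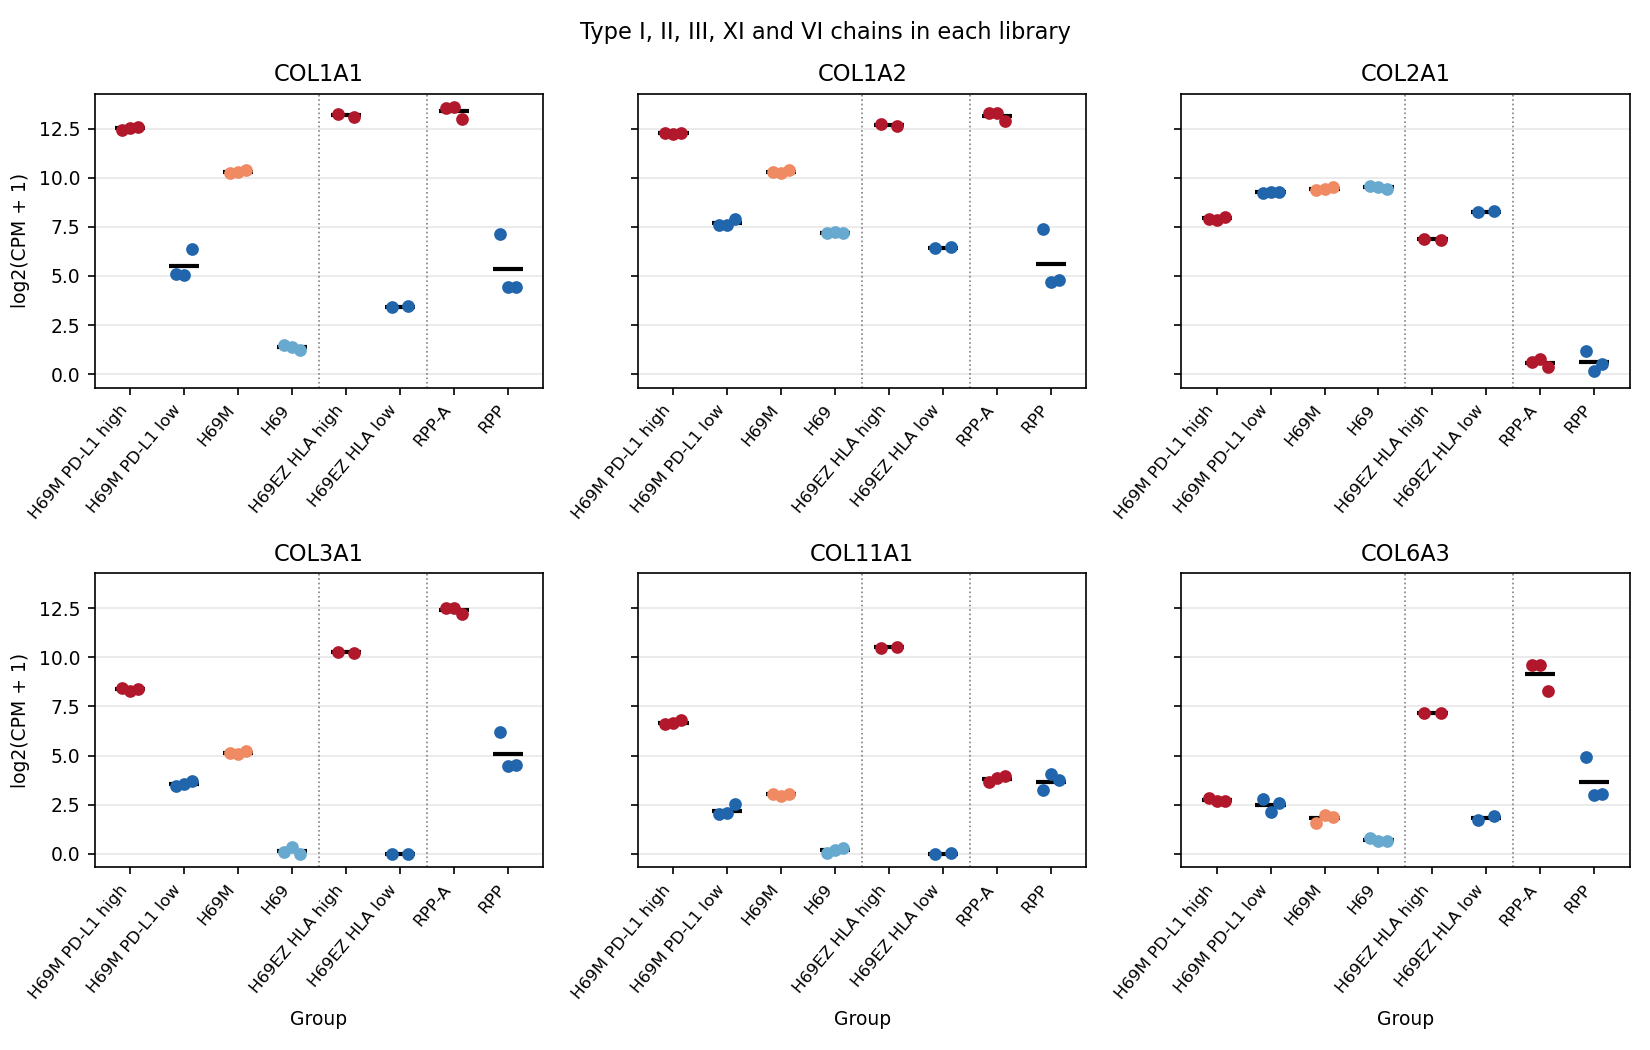
Level of COL1A1, COL1A2, COL2A1, COL3A1, COL11A1 and COL6A3 (mouse Col genes for RPP-A and RPP) as log2(CPM + 1); points are libraries, bars group means, and dotted lines separate tables. COL2A1 is lower in the PD-L1 high and HLA-ABC high fractions than in their low fractions, whereas COL1A1, COL1A2, COL3A1 and COL11A1 are higher in both.

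Type III collagen, encoded by COL3A1, forms fine fibres together with type I collagen. It had 345, 311 and 331 CPM in PD-L1 high libraries and 9.97, 10.7 and 11.9 CPM in PD-L1 low libraries (log2 fold change 4.94, SE 0.09, edgeR adjusted p = 3.15e-20). H69M had 33.6, 32.6 and 36.2 CPM, against 0.0805, 0.264 and 0 CPM in H69 (log2 fold change 7.86, SE 0.19, edgeR adjusted p = 6.22e-18). H69 held only 9 counts of it over 3 libraries, 7 of them in replicate 2, and without that library the log2 fold change was 9.16. PD-L1 low cells were above H69 for COL3A1 by 6.19 on the log2 scale (edgeR adjusted p = 1.29e-14), or by 7.48 without H69 replicate 2. HLA-ABC high libraries had 1219 and 1205 CPM, and both HLA-ABC low libraries had no count, so the level was at least 37879-fold higher against a floor of 3 counts over the group. Col3a1 in RPP-A had 5838, 5862 and 4749 CPM, against 73.2, 20.8 and 22.2 CPM in RPP (log2 fold change 7.15, SE 0.60, edgeR adjusted p = 1.73e-05), and the log2 fold change was 8.04 without EHK_RPP4.

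COL5A1, COL5A2 and COL5A3 encode type V collagen, which sits in the core of type I fibrils and limits their width. COL5A1 had 1094, 1175 and 1203 CPM in PD-L1 high and 11.9, 12.9 and 21.0 CPM in PD-L1 low libraries (log2 fold change 6.29, SE 0.13, edgeR adjusted p = 1.77e-19). COL5A2 had 1177, 1145 and 1181 CPM in PD-L1 high and 7.49, 9.07 and 15.9 CPM in PD-L1 low libraries (log2 fold change 6.82, SE 0.14, edgeR adjusted p = 1.82e-19). Both were separated without overlap, and COL1A1, COL5A1 and COL5A2 were all highest in replicate 3 among the PD-L1 low libraries. In H69M, COL5A1 averaged 205 ± 14.8 CPM and COL5A2 221 ± 1.18, against 1.999 ± 0.267 and 0.392 ± 0.132 in H69 (SD, n = 3 each; log2 fold changes 6.65 and 9.01, edgeR adjusted p = 5.47e-18 and 3.97e-18). COL5A3 averaged 6.24 ± 1.34 CPM in H69M, and with no count in H69 it was at least 133-fold higher. In HLA-ABC high cells COL5A2 averaged 1413 ± 16.4 CPM, against 8.38 ± 0.0885 in HLA-ABC low cells (SD, n = 2 each; log2 fold change 7.40, SE 0.08). All 3 type V genes passed as higher in each of the 4 comparisons of an MHC class I high group with its counterpart. RPP-A exceeded RPP by log2 fold changes of 6.89 for Col5a1 and 6.86 for Col5a2 (edgeR adjusted p = 6.99e-05 and 1.48e-05), or 8.13 and 7.67 without EHK_RPP4.

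COL11A1 encodes a chain of type XI collagen, the minor fibrillar collagen of cartilage. HLA-ABC high libraries had 1431 and 1495 CPM, making it the third most abundant collagen there by CPM and the fifth per coding kilobase, and HLA-ABC low libraries held 0 and 1 count. The ratio was 136692 (95% counting interval 24533 to 5399080.0). Its fitted log2 fold change of 16.73 became 15.78 without HLA-ABC low replicate 1 and 19.05 without replicate 2. PD-L1 high libraries had 94.9, 98.2 and 112 CPM and PD-L1 low libraries 3.01, 3.16 and 4.77 CPM (log2 fold change 4.85, SE 0.12, edgeR adjusted p = 1.58e-18). H69M was also above H69, with 7.37, 6.77 and 7.34 CPM against 0.0402, 0.151 and 0.242 CPM (log2 fold change 5.77, SE 0.29, edgeR adjusted p = 5.45e-13). In RPP-A it had 11.5, 13.5 and 14.3 CPM, against 8.40, 15.4 and 12.4 CPM in RPP, which overlapped and did not pass (log2 fold change 0.12, SE 0.22, edgeR adjusted p = 0.651). The partner chain gene COL11A2 was lower in H69M (log2 fold change -1.50, SE 0.35, edgeR adjusted p = 0.000823) and higher in PD-L1 high cells, 2.59, 2.35 and 4.15 CPM against 0.753, 1.49 and 0.940 CPM in PD-L1 low cells (log2 fold change 1.46, SE 0.33, edgeR adjusted p = 0.000426). It was called lower in PD-L1 low cells than in H69 (log2 fold change -0.92, SE 0.34, edgeR adjusted p = 0.0190), although the groups overlapped; without H69 replicate 1 the value was -0.42 (adjusted p = 0.274) and without PD-L1 low replicate 1 it was -0.66 (adjusted p = 0.120).

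Type II collagen is the fibrillar collagen of cartilage, and its gene COL2A1 went against the other abundant fibrillar genes. It was the leading collagen of the human MHC class I low groups, with 62.4% of collagen CPM in H69, 50.4% in PD-L1 low cells and 56.3% in HLA-ABC low cells. It had 241, 232 and 254 CPM in PD-L1 high libraries, against 589, 627 and 628 CPM in PD-L1 low libraries (log2 fold change -1.34, SE 0.06, edgeR adjusted p = 2.04e-14). HLA-ABC high libraries had 118 and 113 CPM and HLA-ABC low libraries 307 and 311 CPM (log2 fold change -1.42, SE 0.06). In both sorts every high library lay below every low library. H69M libraries had 652, 676 and 738 CPM, which overlapped 774, 746 and 697 CPM in H69 (log2 fold change -0.10, SE 0.06, edgeR adjusted p = 0.109). A small difference from H69 passed when either H69 replicate 3 (log2 fold change -0.14, edgeR adjusted p = 0.0277) or H69M replicate 3 (-0.15, edgeR adjusted p = 0.0297) was left out. The sum of 5 neuroendocrine markers was 1066 to 1121 CPM in PD-L1 high and 3904 to 4128 in PD-L1 low cells, and 550 to 570 in HLA-ABC high and 1893 to 1909 in HLA-ABC low cells. All 5 were lower in PD-L1 high cells and 4 of 5 in HLA-ABC high cells, where NCAM1 did not pass (296 ± 2.21 CPM against 278 ± 3.31 CPM in HLA-ABC low cells; log2 fold change 0.09, edgeR adjusted p = 0.146). Their part in the result was not tested. Col2a1 held 25 counts over the RPP-A libraries and 24 over the RPP libraries and was not tested.

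COL24A1 and COL27A1 encode minor fibrillar chains of types XXIV and XXVII. COL24A1 had 0.449, 0.398 and 0.536 CPM in H69M libraries and 11.1, 10.9 and 10.01 CPM in H69 (log2 fold change -4.50, SE 0.17, edgeR adjusted p = 5.29e-15). It was also low in both PD-L1 fractions, and PD-L1 low cells were below H69 (log2 fold change -5.77, edgeR adjusted p = 5.13e-15). The fractions themselves overlapped (log2 fold change -0.17, SE 0.54, edgeR adjusted p = 0.813). In RPP-A the gene was higher than in RPP, with 18.9, 20.2 and 15.7 CPM against 2.20, 1.04 and 1.13 CPM (log2 fold change 3.67, SE 0.28, edgeR adjusted p = 9.38e-06). COL27A1, named here after its values were seen, was higher in each of the 4 comparisons, with log2 fold changes of 5.40 in PD-L1 high cells, 4.41 in H69M, 4.34 in HLA-ABC high cells and 2.49 in RPP-A.

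Type IV collagen genes lie head to head in pairs that share the stretch between their start sites, and the pairs did not move alike. Promoter sequences of 1 gene of each pair are shown because the pairs differed from each other in the PD-L1 sort and in H69M, as described next. RefSeq (GRCh38.p14; the deposited counts are of hg19 and carry no coordinates) puts the starts of COL4A1 and COL4A2 127 bases apart on chromosome 13, those of COL4A3 and COL4A4 419 bases apart on chromosome 2, and those of COL4A5 and the nearest COL4A6 start 380 bases apart on chromosome X. Each window below runs from 250 bases before a start to 50 after it, on the plus strand of the genome, with CG dinucleotides in capitals.

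COL4A2, chr13:110307034-110307333: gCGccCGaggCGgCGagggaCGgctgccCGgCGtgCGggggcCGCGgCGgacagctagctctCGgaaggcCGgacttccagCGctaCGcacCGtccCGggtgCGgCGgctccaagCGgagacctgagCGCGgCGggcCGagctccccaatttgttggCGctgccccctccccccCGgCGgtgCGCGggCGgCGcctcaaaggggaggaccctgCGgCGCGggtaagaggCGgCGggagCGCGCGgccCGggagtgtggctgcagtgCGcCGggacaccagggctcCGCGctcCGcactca
COL4A3, chr2:227164374-227164673: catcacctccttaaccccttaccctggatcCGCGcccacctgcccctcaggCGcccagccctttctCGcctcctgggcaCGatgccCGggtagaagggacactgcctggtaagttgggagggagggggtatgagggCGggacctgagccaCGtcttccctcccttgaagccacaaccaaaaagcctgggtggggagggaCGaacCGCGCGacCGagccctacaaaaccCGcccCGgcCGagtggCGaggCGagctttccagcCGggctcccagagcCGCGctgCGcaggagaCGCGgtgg
COL4A5, chrX:108439588-108439887: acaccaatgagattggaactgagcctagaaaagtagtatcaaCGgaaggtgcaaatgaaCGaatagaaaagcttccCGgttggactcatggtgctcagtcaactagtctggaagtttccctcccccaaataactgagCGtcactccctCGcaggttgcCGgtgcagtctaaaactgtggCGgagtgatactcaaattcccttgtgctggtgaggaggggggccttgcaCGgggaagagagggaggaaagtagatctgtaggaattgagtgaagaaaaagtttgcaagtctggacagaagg
The windows of COL4A1 and COL4A2 hold 45 CG each, more than 96.5% of 35114 promoter windows of that length, which have a median of 14 and a middle range of 4 to 28. COL4A3 and COL4A4 hold 24 and 29, and COL4A5 and COL4A6 hold 8 and 7. The letters CCAAT, searched on both strands, occur in 34.6% of all windows, once each in those of COL4A1 and COL4A2, in neither of COL4A3 and COL4A4, and 2 and 3 times in those of COL4A5 and COL4A6. These are descriptions of letters and show no bound factor.

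COL4A1 and COL4A2, the chains of nearly every basement membrane, were absent or scarce in H69-derived low groups and scarce even in high groups. COL4A1 had 32, 27 and 24 counts in PD-L1 high libraries and none in PD-L1 low libraries, at least 30.0-fold higher. COL4A2 had 37, 35 and 36 counts in PD-L1 high libraries and none in PD-L1 low libraries, at least 39.0-fold higher. Neither gene had a count in H69, and H69M held 12 counts of COL4A1 and 17 of COL4A2, at least 3.72-fold and 5.27-fold higher. In HLA-ABC high libraries COL4A1 had 4.41 and 5.06 CPM, against 0.0791 and 0.0232 CPM in HLA-ABC low libraries (log2 fold change 6.39, SE 0.32), and the log2 fold change was 7.50 without HLA-ABC low replicate 1. COL4A2 had 4.99 and 4.69 CPM in HLA-ABC high libraries and 1 count over both HLA-ABC low libraries, a ratio of 455 (95% counting interval 81.3 to 18019). Its fitted log2 fold change of 8.50 became 10.73 or 7.75 when 1 HLA-ABC low library was left out. COL4A2-AS1 overlaps COL4A2 on the opposite strand, and the use of strand in counting is not given in the sources used here.

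The mouse lines expressed this pair in both groups. Col4a1 had 435, 433 and 274 CPM in RPP-A and 109.5, 40.2 and 35.9 CPM in RPP (log2 fold change 2.62, SE 0.45, edgeR adjusted p = 0.000915). Col4a2 had 326, 322 and 201 CPM in RPP-A and 166, 68.8 and 65.2 CPM in RPP (log2 fold change 1.50, SE 0.38, edgeR adjusted p = 0.00764). All RPP-A libraries lay above all RPP libraries, of which EHK_RPP4 was the highest. Without EHK_RPP4 the log2 fold changes were 3.37 and 2.12.

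COL4A3 and COL4A4 encode chains of the kidney glomerulus and of some lung and ear basement membranes. Both were highest in H69 among the libraries of the H69 table. COL4A4 had 0.539, 0.597 and 0.574 CPM in H69M and 36.8, 32.6 and 29.9 CPM in H69 (log2 fold change -5.86, SE 0.14, edgeR adjusted p = 6.96e-18). COL4A3 had 0.180, 0.149 and 0.230 CPM in H69M and 2.98, 2.83 and 3.15 CPM in H69 (log2 fold change -3.92, SE 0.32, edgeR adjusted p = 1.14e-09). The groups were fully apart for both chains. PD-L1 low cells, which share the MHC class I label of H69, were below it too, with log2 fold changes of -4.84 for COL4A4 and -3.39 for COL4A3 (edgeR adjusted p = 5.63e-17 and 6.23e-09). Within the sort COL4A4 was slightly lower in PD-L1 high cells (log2 fold change -0.62, SE 0.27, edgeR adjusted p = 0.0420). In H69EZ it was higher in HLA-ABC high cells, 1.40 and 1.49 CPM against 0.237 and 0.255 CPM (log2 fold change 2.54, SE 0.31). Col4a4 was lower in RPP-A, 0.203, 0.230 and 0.0625 CPM against 3.18, 1.87 and 1.76 CPM in RPP (log2 fold change -3.70, SE 0.47, edgeR adjusted p = 0.000176), and Col4a3 had no count in RPP-A and 20 in RPP, at least 7.85-fold lower.

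COL4A5 and COL4A6, the X-linked pair found in kidney, smooth muscle and other basement membranes, were the most abundant type IV chains of H69. COL4A5 had 45.3, 40.7 and 45.8 CPM in PD-L1 high libraries and 63.4, 76.8 and 72.1 CPM in PD-L1 low libraries (log2 fold change -0.69, SE 0.08, edgeR adjusted p = 6.58e-08). COL4A6 had 16.9, 16.7 and 16.2 CPM in PD-L1 high libraries and 57.5, 59.9 and 58.7 CPM in PD-L1 low libraries (log2 fold change -1.82, SE 0.07, edgeR adjusted p = 2.42e-15). In this sort both chains were lower in the high fraction without overlap, opposite to COL4A1 and COL4A2. The H69EZ sort went the other way: COL4A5 had 58.8 and 66.1 CPM in HLA-ABC high and 2.51 and 2.41 CPM in HLA-ABC low libraries (log2 fold change 4.66, SE 0.10). COL4A6 had 13.8 and 12.7 CPM in HLA-ABC high and 1.64 and 1.58 CPM in HLA-ABC low libraries (log2 fold change 3.04, SE 0.13). The difference between the sorts was not tested, because they are in separate tables. COL4A5 overlapped between H69M (80.8 ± 5.74 CPM) and H69 (73.9 ± 4.14; SD, n = 3 each) and did not pass (log2 fold change 0.13, SE 0.07, edgeR adjusted p = 0.118), while COL4A6 was lower in H69M (log2 fold change -0.41, SE 0.06, edgeR adjusted p = 3.99e-06).

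In the mouse lines both X-linked chains were higher in RPP-A. Col4a5 had 132, 130.5 and 107 CPM in RPP-A and 9.95, 2.15 and 1.62 CPM in RPP (log2 fold change 4.79, SE 0.56, edgeR adjusted p = 0.000110). Col4a6 had 12.4, 11.5 and 10.7 CPM in RPP-A, against 0.571, 0.208 and 0.0703 CPM in RPP (log2 fold change 5.37, SE 0.40, edgeR adjusted p = 8.54e-06). No RPP library reached the lowest RPP-A library. Without EHK_RPP4 the log2 fold changes were 6.07 and 6.33.

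**Figure D5:**
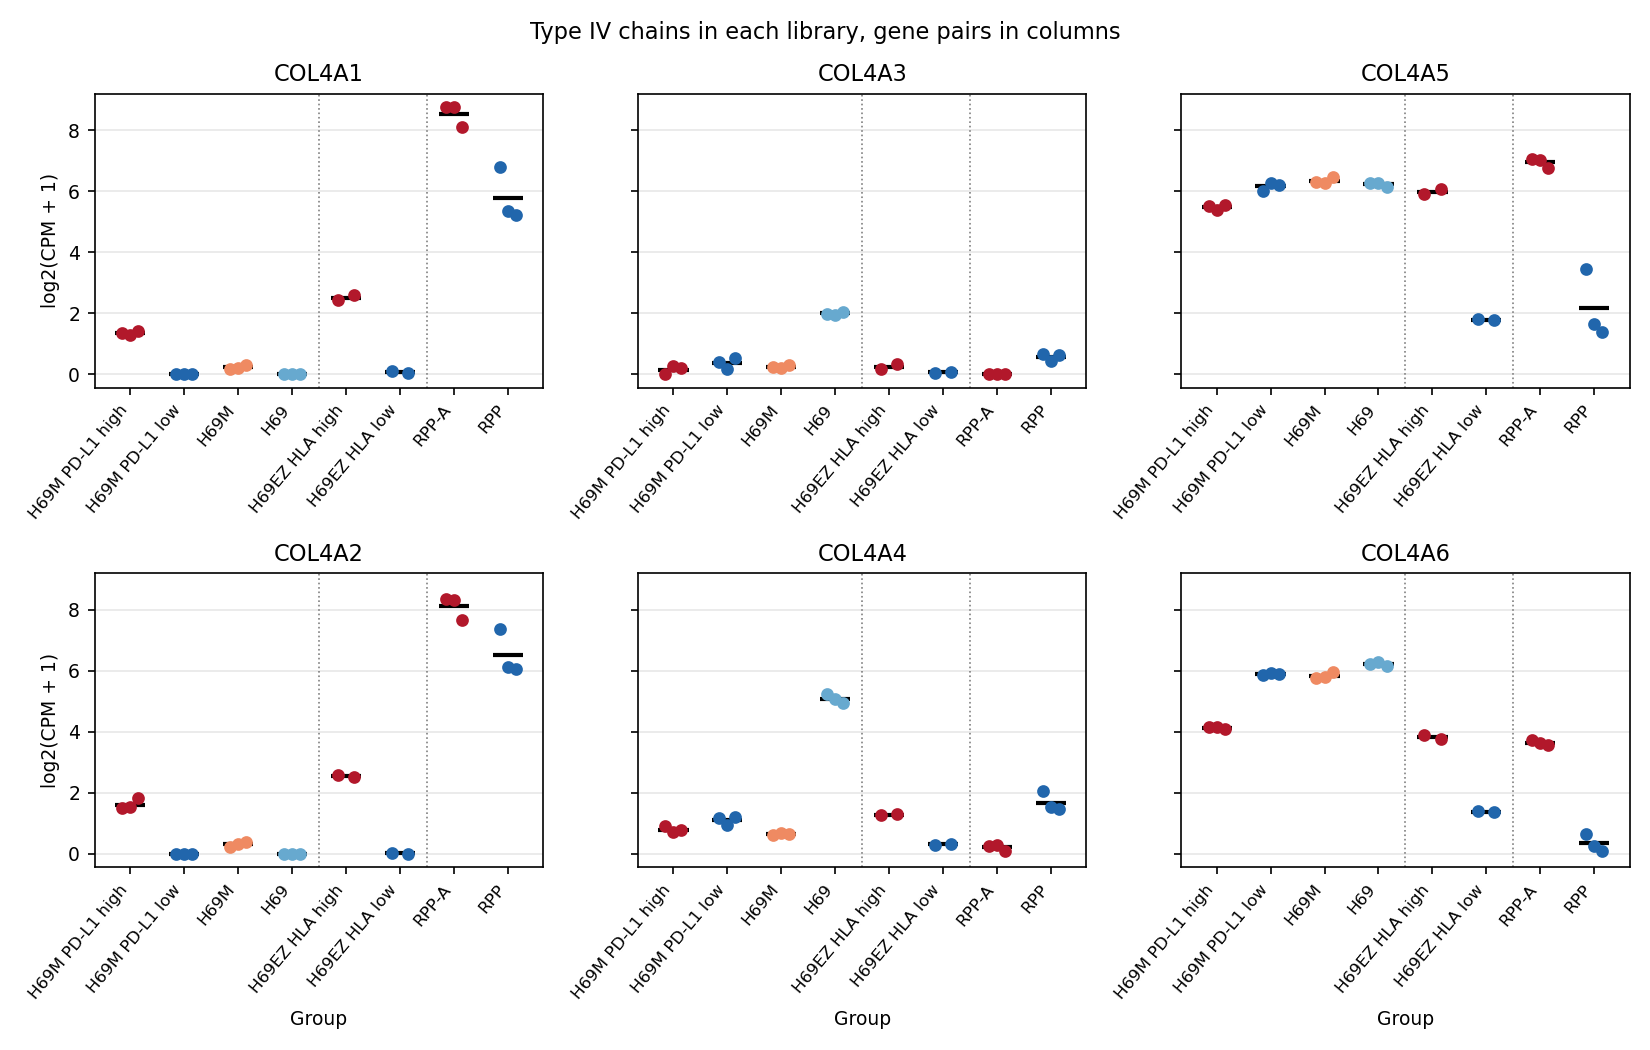
Level of the type IV collagen genes as log2(CPM + 1), with 1 gene of each head-to-head pair above the other; points are libraries, bars group means, and dotted lines separate tables. COL4A3 and COL4A4 are highest in H69 within its table, and COL4A5 and COL4A6 are lower in PD-L1 high than PD-L1 low cells but higher in HLA-ABC high and RPP-A cells than in their counterparts.

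COL18A1 and COL15A1 encode the multiplexin collagens, which carry heparan or chondroitin sulfate and release the fragments endostatin and restin. COL18A1 had 559, 552 and 566 CPM in PD-L1 high libraries and 22.3, 20.7 and 29.9 CPM in PD-L1 low libraries (log2 fold change 4.55, SE 0.09, edgeR adjusted p = 2.07e-19). H69M had 122, 129 and 137 CPM, against 4.75, 4.003 and 3.47 CPM in H69 (log2 fold change 4.95, SE 0.12, edgeR adjusted p = 4.02e-18). It supplied most of the basement membrane sum in PD-L1 high cells. HLA-ABC high libraries had 704 and 655 CPM and HLA-ABC low libraries 6.34 and 6.40 CPM (log2 fold change 6.74, SE 0.08). In RPP-A, Col18a1 had 217, 224 and 140.2 CPM, against 107, 106 and 103 CPM in RPP, a smaller but separated difference (log2 fold change 0.88, SE 0.18, edgeR adjusted p = 0.00223). SLC19A1 lies on the opposite strand over part of COL18A1, so these counts are uncertain to that extent. COL15A1 was scarce in the H69 table and had 8.61 and 9.30 CPM in HLA-ABC high libraries, with 1 count over the HLA-ABC low libraries, a ratio of 835 (95% counting interval 149 to 33022); the fitted log2 fold change of 9.38 became 8.42 or 11.69 with 1 of them left out.

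COL6A1, COL6A2 and COL6A3 encode type VI collagen, whose beaded filaments anchor cells to the matrix and which needs all of these chains for assembly. COL6A1 had 609, 653 and 662 CPM in PD-L1 high libraries and 17.4, 14.3 and 23.4 CPM in PD-L1 low libraries (log2 fold change 5.15, SE 0.11, edgeR adjusted p = 2.20e-19). COL6A2 had 1031, 1058 and 1068 CPM in PD-L1 high libraries and 8.64, 5.54 and 16.9 CPM in PD-L1 low libraries (log2 fold change 6.76, SE 0.19, edgeR adjusted p = 1.35e-17). COL6A3 did not follow them: PD-L1 high libraries had 6.22, 5.56 and 5.49 CPM, overlapping 5.94, 3.35 and 4.92 CPM in PD-L1 low libraries (log2 fold change 0.29, SE 0.17, edgeR adjusted p = 0.134). Without PD-L1 low replicate 1 that difference passed, at 0.49 (edgeR adjusted p = 0.0219).

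H69M against H69 gave the same order. COL6A1 averaged 183 ± 9.38 CPM in H69M and 0.252 ± 0.134 in H69 (SD, n = 3 each; log2 fold change 9.66, edgeR adjusted p = 5.58e-19). COL6A2 averaged 292 ± 10.4 CPM in H69M and had 3 counts over the H69 libraries, a ratio of 6194 (95% counting interval 2119 to 30039.6). Its fitted log2 fold change of 12.42 became 11.77 without H69 replicate 1 and 13.10 without replicate 2. COL6A3 averaged 2.54 ± 0.502 CPM in H69M and 0.619 ± 0.0916 in H69 (SD, n = 3 each; log2 fold change 2.01, SE 0.28, edgeR adjusted p = 2.70e-06). PD-L1 low cells stood above H69 for COL6A1, COL6A2 and COL6A3 by 6.31, 7.51 and 2.90 on the log2 scale (edgeR adjusted p = 3.21e-14, 1.08e-09 and 3.40e-09). For COL6A2 this was 6.86 without H69 replicate 1 and 8.19 without replicate 2.

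In H69EZ and in the mouse lines COL6A3 rose with its partners. HLA-ABC high libraries had 143 and 143 CPM of COL6A3, against 2.27 and 2.74 CPM in HLA-ABC low libraries (log2 fold change 5.84, SE 0.10). COL6A1 averaged 185 ± 7.58 and 7.20 ± 0.0903 CPM in the same groups, and COL6A2 204 ± 5.58 and 1.68 ± 0.112 (SD, n = 2 each; log2 fold changes 4.69 and 6.92). In RPP-A, Col6a3 had 768, 778 and 311 CPM, against 29.8, 6.93 and 7.17 CPM in RPP (log2 fold change 5.41, SE 0.71, edgeR adjusted p = 0.000202). RPPM3 had the lowest RPP-A level and EHK_RPP4 the highest RPP level, and the groups did not overlap. Log2 fold changes of Col6a1, Col6a2 and Col6a3 were 6.11, 6.23 and 5.41, or 7.26, 7.22 and 6.50 without EHK_RPP4. Col6a4, which encodes a further chain, had 7.86, 7.86 and 6.12 CPM in RPP-A and 2 counts over the RPP libraries, a ratio of 149 (95% counting interval 40.9 to 1235).

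The FACIT collagens bind to the surface of fibrils. COL12A1, found in tendon and around stressed fibres, had 64.2, 63.2 and 70.6 CPM in PD-L1 high and 0.0886, 0.0465 and 0.434 CPM in PD-L1 low libraries (log2 fold change 8.67, SE 0.18, edgeR adjusted p = 2.81e-19). The PD-L1 low level rested on 9 counts, 6 of them in replicate 3, and without that library the log2 fold change was 9.80. H69M exceeded H69 by 6.46 (edgeR adjusted p = 1.01e-14) and HLA-ABC high exceeded HLA-ABC low cells by 8.11 on the log2 scale. Col12a1 had 976, 985 and 462 CPM in RPP-A and 12.6, 2.15 and 2.11 CPM in RPP (log2 fold change 7.19, SE 0.80, edgeR adjusted p = 8.35e-05). RPPM3 was again low and EHK_RPP4 high within their groups, and the log2 fold change was 8.60 without EHK_RPP4. COL14A1 and COL16A1, the second named after its values were seen, were higher in all 4 of these comparisons, by 3.92 and 3.46 in PD-L1 high cells and by 9.20 and 2.66 in HLA-ABC high cells on the log2 scale; for COL14A1 the second value was 9.83 without HLA-ABC low replicate 1.

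Not all FACIT genes rose. COL22A1, which in other tissues marks tissue junctions such as that of muscle and tendon, had 8.12, 6.998 and 10.97 CPM in PD-L1 high libraries and 48.5, 54.9 and 53.6 CPM in PD-L1 low libraries (log2 fold change -2.61, SE 0.11, edgeR adjusted p = 1.06e-14). In H69M it was higher than in H69, 40.8, 42.3 and 44.2 CPM against 25.6, 23.8 and 21.3 CPM (log2 fold change 0.84, SE 0.09, edgeR adjusted p = 1.00e-07). HLA-ABC high cells were slightly below HLA-ABC low cells (log2 fold change -0.37, SE 0.10). Col22a1 fell in RPP-A, to 0.203, 0.402 and 0.250 CPM, against 10.03, 10.3 and 10.9 CPM in RPP (log2 fold change -5.13, SE 0.26, edgeR adjusted p = 1.13e-06). COL22A1 was thus lower in both sorts and in RPP-A, and higher in unsorted H69M.

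Type IX collagen decorates type II fibrils in cartilage. Col9a2 was the second most abundant collagen of RPP by CPM and had 0.678, 0.861 and 0.125 CPM in RPP-A, against 112, 133 and 136 CPM in RPP (log2 fold change -7.80, SE 0.32, edgeR adjusted p = 4.83e-07). All RPP libraries, EHK_RPP4 among them, had more than every RPP-A library. Human COL9A2, named after its values were seen, changed little: the log2 fold change was -0.23 in PD-L1 high cells (edgeR adjusted p = 0.0356) and 0.83 in HLA-ABC high cells. COL9A3 had 0.343, 0.481 and 1.20 CPM in PD-L1 high libraries and 2.08, 1.30 and 2.89 CPM in PD-L1 low libraries (log2 fold change -1.68, SE 0.36, edgeR adjusted p = 0.000294), or a log2 fold change of -2.31 without PD-L1 high replicate 3. It was higher in H69M than in H69 (log2 fold change 1.61, SE 0.51, edgeR adjusted p = 0.00861) and did not pass in the HLA sort (log2 fold change -0.31, edgeR adjusted p = 0.0532). TCFL5 overlaps COL9A3 on the opposite strand. Mouse Col9a3 was called lower in RPP-A (log2 fold change -0.97, SE 0.33, edgeR adjusted p = 0.0273), a call that was lost when any 1 library other than EHK_RPP4 was left out, at adjusted p from 0.0509 to 0.116.

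Transmembrane collagens sit in the plasma membrane with the collagen part outside. COL13A1, a cell adhesion collagen, had 14.2, 14.0 and 14.6 CPM in PD-L1 high and 0.576, 0.419 and 0.434 CPM in PD-L1 low libraries (log2 fold change 4.86, SE 0.17, edgeR adjusted p = 8.39e-15). H69M had 5.21, 6.22 and 6.20 CPM and H69 no count, at least 125-fold higher. It was higher in HLA-ABC high cells by 3.05 on the log2 scale, or 3.64 without HLA-ABC low replicate 1. COL17A1, the hemidesmosome collagen of epithelia, fell to 1.21, 1.14 and 1.11 CPM in H69M, against 12.4, 12.4 and 15.7 CPM in H69 (log2 fold change -3.52, SE 0.16, edgeR adjusted p = 9.15e-14). PD-L1 low cells were also below H69 (log2 fold change -3.69, SE 0.17, edgeR adjusted p = 1.67e-13). The PD-L1 fractions overlapped (log2 fold change 0.47, SE 0.26, edgeR adjusted p = 0.107), although the difference passed without PD-L1 high replicate 3 (0.62, adjusted p = 0.0373). In H69EZ it was higher in the high fraction, 39.9 and 39.9 CPM against 0.751 and 0.719 CPM (log2 fold change 5.75, SE 0.13).

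COL23A1 and COL25A1, also membrane collagens, had few counts in the H69 table. COL25A1 had 2.89, 2.62 and 3.17 CPM in PD-L1 high libraries and no count in PD-L1 low libraries, at least 55.3-fold higher, and was at least 20.9-fold higher in HLA-ABC high than in HLA-ABC low cells. In RPP-A it was lower, 4.20, 3.39 and 3.31 CPM against 8.65, 8.59 and 7.38 CPM in RPP (log2 fold change -1.18, SE 0.18, edgeR adjusted p = 0.000477). COL23A1 was the reverse of COL25A1 in the PD-L1 sort: PD-L1 high libraries held 0, 4 and 1 counts and PD-L1 low libraries 34, 26 and 27 counts (log2 fold change -3.93, SE 0.52, edgeR adjusted p = 1.50e-06). The value was -3.30 without PD-L1 high replicate 1 and -5.44 without replicate 2. In H69 COL23A1 had no count, and PD-L1 low cells were at least 31.9-fold higher. HLA-ABC high libraries had 9.05 and 8.97 CPM, against 0.0988 and 0.0696 CPM in HLA-ABC low libraries (log2 fold change 6.68, SE 0.25), and RPP-A was lower than RPP (log2 fold change -1.72, SE 0.36, edgeR adjusted p = 0.00277).

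COL7A1, the anchoring fibril of skin, had 108, 118 and 144 CPM in PD-L1 high libraries and 10.5, 12.6 and 13.2 CPM in PD-L1 low libraries (log2 fold change 3.36, SE 0.19, edgeR adjusted p = 2.27e-12). H69 libraries spread widely, with 28.5, 19.4 and 10.8 CPM, and overlapped 16.5, 16.5 and 20.1 CPM in H69M (log2 fold change -0.20, SE 0.20, edgeR adjusted p = 0.357); without H69 replicate 3 the difference passed at -0.43 (adjusted p = 0.0120). HLA-ABC high cells exceeded HLA-ABC low cells by 2.42 on the log2 scale, and RPP-A exceeded RPP by 1.42 (edgeR adjusted p = 0.00310). COL8A1, a short-chain network collagen of vessel walls and cornea, had 8.53 and 8.16 CPM in HLA-ABC high and 18.5 and 20.4 CPM in HLA-ABC low libraries (log2 fold change -1.22, SE 0.09). In the PD-L1 sort, by contrast, it was higher in PD-L1 high cells, 114 ± 2.82 against 4.49 ± 0.758 CPM (SD, n = 3 each; log2 fold change 4.68, SE 0.09, edgeR adjusted p = 6.19e-20). Col8a1 led the collagens of RPP with 21.9% of their CPM and was slightly lower in RPP-A (log2 fold change -0.54, SE 0.15, edgeR adjusted p = 0.0101). COL28A1, of which little is known, was scarce and lower in H69M (log2 fold change -2.18, SE 0.30, edgeR adjusted p = 2.04e-06) and in HLA-ABC high cells (-2.10, or -2.88 without HLA-ABC high replicate 1).

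Several members gave too few counts to test. COL6A5 and COL9A1 had no count in any human library, and Col13a1 had none in the mouse libraries. COL10A1, COL20A1, COL26A1 and COL6A6 were under the filter in both human tables, as was COL19A1 in the H69 table and COL4A3 in the H69EZ table. In mouse, Col2a1, Col4a3, Col6a6, Col9a1, Col13a1, Col17a1, Col19a1 and Col26a1 were not tested. Of these, Col4a3 had the floor-based difference given above, and no comparison was made for the others.

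Many of these genes recurred across comparisons, which are not all of separate lines. H69M and H69EZ both derive from H69, and H69M is the line of both the PD-L1 sort and H69M over H69. Of 36 members tested in both sorts, which share no library, 21 (58.3%) were higher in both high fractions, where 28.2% of 13621 genes were, and 3 (8.33%) were lower in both, where 25.5% were. Those lower in both were COL2A1, COL22A1 and COL28A1. Of 32 members tested in H69M, both sorts and RPP-A, 15 (46.9%) were higher in all 4, beside 10.9% of 11213 genes matched by symbol: the type I, III and V genes, COL27A1, COL4A1, COL4A2, COL18A1, COL6A1, COL6A2, COL12A1, COL14A1 and COL16A1. None was lower in all 4, where 6.65% of genes were. COL4A1 and COL4A2 passed the filter in the H69 table only through PD-L1 high cells and so had to differ in that sort. In the HLA sort COL3A1, COL5A3, COL11A1, COL12A1, COL13A1, COL14A1, COL15A1, COL25A1, COL4A1 and COL4A2 passed it only through HLA-ABC high cells. All of these are among the 21 and had to differ there. COL28A1 passed it only through HLA-ABC low cells. Col14a1 and Col27a1, among the 15, passed it only through RPP-A. Unsorted H69M lay between its fractions in mean level for 26 of 37 members (70.3%) and for 58.0% of 15445 genes. COL2A1, COL4A5 and COL6A3 were among the exceptions.

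The PD-L1 sort and the difference between H69M and H69 come from separate libraries of 1 table, and their difference could be tested. Of 37 members 26 differed in size of change, where 71.4% of all genes did, so the share was near the background. Given as the log2 fold change of the sort minus that of H69M over H69, the difference was negative for COL1A1 (-2.67, SE 0.43, edgeR adjusted p = 1.56e-05) and COL6A1 (-4.50, SE 0.33, edgeR adjusted p = 2.56e-10). Both rose less in the sort on the log2 scale only, and PD-L1 low cells were already above H69 for these genes. COL1A2 changed more in the sort (1.45, SE 0.09, edgeR adjusted p = 3.69e-11), as did COL7A1 (3.57, SE 0.28, edgeR adjusted p = 5.06e-10). COL5A1 and COL11A1 did not differ at the threshold (-0.36, SE 0.24, edgeR adjusted p = 0.191, and -0.92, SE 0.50, edgeR adjusted p = 0.109). COL11A2 and COL22A1 went in opposite directions in the sort and between the lines (2.96, SE 0.48, edgeR adjusted p = 1.60e-05, and -3.45, SE 0.14, edgeR adjusted p = 3.56e-14).

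Most genes that process collagen were also higher, but not those of propeptide removal in every comparison. Of 42 listed genes for hydroxylation, folding, export, trimming and cross-linking, 36 were higher and 5 lower in PD-L1 high cells and 33 and 7 in H69M, 36 and 5 of 41 in HLA-ABC high cells, and 36 and 2 of 39 in RPP-A, beside the shares of all genes given above. PD-L1 low cells had 22 of 42 higher and 11 lower than H69. All 14 prolyl and lysyl modifying genes were higher in PD-L1 high cells and in H69M, 13 of 14 in HLA-ABC high cells and 13 of 13 in RPP-A. The largest rise among them was that of LEPREL1, a prolyl 3-hydroxylase, with 195 ± 9.04 CPM in PD-L1 high and 1.67 ± 0.810 CPM in PD-L1 low cells (SD, n = 3 each; log2 fold change 6.97, SE 0.13, edgeR adjusted p = 3.68e-20). SERPINH1, the collagen chaperone HSP47, had 670.1 ± 20.6 CPM and 32.0 ± 5.04 CPM in these fractions (log2 fold change 4.40, SE 0.09, edgeR adjusted p = 9.09e-20). This gene was named after its values were seen.

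SPARC, a matrix protein that binds collagen, had 2327 ± 22.3 CPM in PD-L1 high and 27.3 ± 11.6 CPM in PD-L1 low cells (SD, n = 3 each; log2 fold change 6.46, SE 0.17, edgeR adjusted p = 9.18e-18). In H69M it had 528 ± 6.97 CPM, against 0.115 ± 0.135 CPM in H69 (SD, n = 3 each), a log2 fold change of 11.97 that ran from 11.28 to 13.96 when H69 replicate 1 or 2 was left out. LOXL2, a lysyl oxidase that cross-links collagen, was higher by 6.07 in PD-L1 high cells and 7.21 in H69M (edgeR adjusted p = 3.05e-19 and 5.69e-18). The small proteoglycan LUM rose by 5.29 in PD-L1 high cells (edgeR adjusted p = 2.13e-18). Another fibril-binding proteoglycan, FMOD, went the other way, with 0.0178 ± 0.0308 CPM in PD-L1 high and 1.07 ± 0.0902 CPM in PD-L1 low cells (log2 fold change -5.41, SE 0.64, edgeR adjusted p = 1.70e-07), or a log2 fold change of -7.44 without PD-L1 high replicate 2. FMOD was lower in HLA-ABC high cells too (-3.81). In mouse it rose, with 81.6 ± 7.37 CPM in RPP-A and 0.0934 ± 0.108 CPM in RPP (SD, n = 3 each; log2 fold change 9.59, SE 0.30, edgeR adjusted p = 1.95e-07), or 10.82 without RPP2. Of 8 genes of propeptide removal, 5 were higher and 3 lower in PD-L1 high cells, 2 higher and 5 lower in H69M, and 1 higher and 5 lower in PD-L1 low cells against H69. In HLA-ABC high cells and in RPP-A, 5 of 7 were higher and 2 lower. BMP1, which removes the C-terminal propeptide of fibrillar collagens, rose by 4.63 in PD-L1 high cells (edgeR adjusted p = 1.22e-20) and was lower in PD-L1 low cells than in H69 (log2 fold change -1.98, SE 0.08, edgeR adjusted p = 7.76e-15). By contrast ADAMTS14, an N-propeptidase, fell to 7.84 ± 0.355 CPM in H69M, against 21.2 ± 2.98 CPM in H69 (log2 fold change -1.45, SE 0.10, edgeR adjusted p = 5.75e-11).

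Of the collagen receptors, 7 of 8 tested were higher and 1 lower in PD-L1 high cells, where 39.0% of all genes were higher. In H69M 8 of 8 were higher (35.9% of all genes), in HLA-ABC high cells 7 of 9 higher and 2 lower (41.1% of all genes higher), and in RPP-A 6 of 7 higher and 1 lower (37.6% of all genes higher). ITGA11, the integrin chain that binds type I collagen on fibroblasts, had 44.3 ± 0.853 CPM in PD-L1 high and 0.244 ± 0.228 CPM in PD-L1 low cells (SD, n = 3 each; log2 fold change 7.70, SE 0.18, edgeR adjusted p = 1.66e-18). MRC2, which takes up collagen fragments, had 48.7 ± 3.81 CPM in H69M and 0.118 ± 0.0353 CPM in H69 (SD, n = 3 each; log2 fold change 8.53, SE 0.18, edgeR adjusted p = 1.45e-18). The receptor kinases differed in the PD-L1 sort: DDR2 was higher and DDR1 lower in PD-L1 high cells (4.25 and -0.63 on the log2 scale, edgeR adjusted p = 1.07e-18 and 5.89e-10). DDR1 was also slightly lower in HLA-ABC high cells (-0.15) but higher in H69M (0.47) and RPP-A (0.79), and DDR2 was higher in all of these. These receptors were named after their values were seen.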

How the data were processed

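The authors deposited 3 tables of whole-number read counts per gene, 1 of H69 and H69M libraries, 1 of H69EZ fractions and 1 of mouse libraries. Per the labels' protocols, 250 ng of total RNA was enriched with an Illumina exome capture kit and sequenced on a NextSeq 500. The submitters' processing notes name STAR 2.6.1, hg19 and mm10; the sources used here do not give the counter, annotation or strand setting. Mouse columns name a group but not which sample, and RPPM columns were read as RPP-A. Each table was fitted whole with edgeR 4.0.16 (R 4.3.3; TMM scaling, filterByExpr with a minimum count of 10, 1 shared spread over all groups), leaving 15445, 14819 and 14032 genes; p-values were Benjamini-Hochberg adjusted over these. The pipeline was tested on simulated data. Named were a panel of 20 members, the 5 largest called rises and falls of each comparison with a mean of at least 1 CPM in a group, and the 4 largest of the biosynthesis list. Members and lists were chosen with earlier results of these data known. Alternatives were a replicate block, a minimum count of 100, no filter, the size factors or the test of DESeq2 1.42.0, limma-voom (limma 3.58.1), only the groups compared, and leaving out each library. Others, chosen after seeing the data, were library totals without TMM, EHK_RPP4 and RPPM3 left out together, RPPM1 and RPPM2 summed, and leaving out each library for the class sums. Counting intervals and floors cover counting error only. Levels per coding length use the longest coding sequence of GENCODE v29.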

Additional observations from a re-analysis of the deposited data

Results flagged for a closer look

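Some collagens were called in opposite directions in comparisons of an MHC class I high group with its counterpart. Between the sorts, with log2 fold changes given for PD-L1 high over low and then HLA-ABC high over low, these were COL23A1 (-3.93 and 6.68), COL4A4 (-0.62 and 2.54), COL4A5 (-0.69 and 4.66), COL4A6 (-1.82 and 3.04), COL8A1 (4.68 and -1.22) and COL9A2 (-0.23 and 0.83). COL4A4, COL4A5 and COL4A6 are basement membrane chains, and COL4A5 and COL4A6 are a head-to-head pair.

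Between the PD-L1 sort and RPP-A over RPP, values were 8.87 and -1.18 for COL25A1, -1.12 and 2.06 for COL28A1, -0.69 and 4.79 for COL4A5, -1.82 and 5.37 for COL4A6, and 4.68 and -0.54 for COL8A1. Between the HLA sort and RPP-A over RPP, they were 6.68 and -1.72 for COL23A1, -1.61 and 3.67 for COL24A1, 7.93 and -1.18 for COL25A1, -2.10 and 2.06 for COL28A1, 2.54 and -3.70 for COL4A4, and 0.83 and -7.80 for COL9A2. These differences lie between separate tables and were not tested. COL25A1 had no count in PD-L1 low or HLA-ABC low cells, so its positive values depend on the prior count.

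Within 1 table the difference was tested. The PD-L1 sort minus H69M over H69 gave 2.96 for COL11A2, -3.45 for COL22A1 and -3.29 for COL9A3 (edgeR adjusted p = 1.60e-05, 3.56e-14 and 9.95e-05), each called in opposite directions in the 2 comparisons. COL11A2 and COL22A1 did not overlap between the groups of either comparison.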

How the results depend on the processing

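The panel members and the largest rises and falls of each comparison were followed through the alternatives. None that passed the threshold, as reported or under an alternative, reversed its direction. Other genes given above, such as those named after their values were seen, were not part of this check. Genes that did not pass could change sign, as Col11a1 in RPP-A did (log2 fold change 0.12, and -0.04 without EHK_RPP4). Of 287 counts of genes under alternatives, 282 were within 1.5 times the reported count. With a minimum count of 100, fewer genes were tested, and lower calls numbered 5 collagens and 4 biosynthesis genes between H69M and H69 (8 and 7 as reported), 3 biosynthesis genes in the PD-L1 sort (5), and 4 collagens and 1 biosynthesis gene in RPP-A (7 and 2). Library totals without TMM, for all but the class sums chosen after seeing the data, moved the median log2 fold change of all genes by -0.14 in the PD-L1 sort, 0.10 between PD-L1 low cells and H69, -0.15 in the HLA sort and -0.37 in RPP-A. The log2 ratios of summed fibrillar, basement membrane and other collagens were then 3.78, 1.87 and 3.71 in the PD-L1 sort and 5.43, 6.01 and 3.24 in the HLA sort, and that of other collagens was 3.23 in RPP-A. Higher collagen calls ran over all alternatives from 18 to 26 in H69M, 17 to 25 in the PD-L1 sort, 26 to 31 in the HLA sort and 19 to 25 in RPP-A. Replicate numbers gave no sign of pairing (correlations of deviations -0.321 to 0.228), but 2 or 3 libraries per group cannot exclude it. With the number as a replicate block, collagen calls were 23 higher and 8 lower in H69M and 23 and 9 in the PD-L1 sort. They were 20 and 9 for PD-L1 low cells against H69 and 30 and 5 in the HLA sort. The biosynthesis calls higher in H69M were then 32. No paired analysis was possible in mouse because its columns could not be tied to the labelled replicates. With 1 library left out, also chosen after seeing the data, the fibrillar sum of PD-L1 low cells against H69 (log2 ratio 0.013) ran from -0.055 to 0.066. Without a filter or with only the compared groups fitted, COL4A5 passed as higher in H69M (0.16), and COL9A3 passed as lower in HLA-ABC high cells with a minimum count of 100 (-0.31) or library totals (-0.46). Col9a3 in RPP-A lost its call by DESeq2 (adjusted p = 0.102) and with RPPM1 and RPPM2 summed (0.0640), as did ADAMTS14 in the HLA sort by DESeq2 (0.0669). The causes were not tested.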
